A study of Gallus gallus with 14 samples.

Results

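Chromosome Z is the sex chromosome that a male chick carries as a pair and a female chick carries once, beside a W. The 516 genes described here are the protein-coding genes of chromosome Z with a mean of at least 1 CPM (counts per 1000000 reads) over 14 retina libraries, out of 18631 genes in the table. They were found as rows on the sequence that carries NFIL3 and DNAJA1, with a coding-sequence feature, and these 2 genes themselves were left out. Of 688 other protein-coding Z genes, 172 fell below the level threshold and are not considered. RASEF and SUSD1, at 0.955 CPM each, lay just outside it, and ALPK2 at 1.03 and SLC46A2 at 1.04 CPM just inside. The sequence is called Z because 742 of the 748 symbols on it that could be matched to the RefSeq gene table are placed on Z there. The study fitted -10 D lenses for 1 day to White Leghorn wild-type chicks aged 3 days and measured total RNA of the retina by sequencing after removal of ribosomal RNA. There were 7 lens and 7 control libraries; every bird was wild type, and the labels do not describe how the control eyes were handled or whether each retina came from its own bird. P-values therefore set group differences against the spread between these libraries, part of which may be technical. They treat the libraries as independent, which the labels do not establish. Sex is not in the labels. Following the list of female libraries that came with the gene set, 3 lens and 4 control libraries were male, and 4 lens and 3 control libraries were female.

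In birds, sex depends on Z and W: ZZ birds are male and ZW birds female. Unlike mammals, which silence an X chromosome in females, birds are known to lack inactivation of a whole Z, and compensation between the sexes is known to be partial and to differ from gene to gene. The W is small and keeps counterparts of a few Z genes, many of which act in transcription, protein handling or other functions sensitive to gene dose. Chicken Z is also known for a male hypermethylated region, which is methylated in males and gives noncoding RNA in females; no row of the table is named for it.

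Low values in the table were mostly whole multiples of 1 read, which put 27.7 M to 49.3 M reads behind the CPM of each library and 8.65 M to 15.3 M on the listed genes. Summed over the 48 W-linked genes, male libraries held 1.53 to 3.10 CPM and female libraries 604 to 655 CPM, so the sexes did not overlap and no library went against its place in the list. Of 10 retina markers 7 were in the table, all above 1 CPM, with a sum of 573 to 882 CPM. Of 7 pigment epithelium markers 1 reached 1 CPM (sums of 1.82 to 9.07 CPM in lens and 2.17 to 4.44 CPM in control libraries). Of 3 muscle markers 2 were in the table, and they summed to at most 0.160 CPM. None of the 4 blood markers had a row in the table, so blood could not be assessed. Myelin markers summed to 117 to 174 CPM in male and 94.2 to 203 CPM in female libraries, and markers of the lens of the eye to 14.1 to 19.4 CPM in male and 10.97 to 17.6 CPM in female libraries. Nearly all of the latter sum was CRYBA4 (mean 15.2 CPM), with CRYBB1 at 0.016 and MIP at 0.003 CPM. In whole retina, fewer cells of a type and less RNA per cell cannot be told apart.

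Most Z-linked genes had more RNA in male than in female retinas, but seldom 2 times as much. The male to female ratio of mean CPM had a median of 1.38 over the 516 genes, with 90% of them between 0.913 and 1.82 and a full range of 0.577 to 2.28. For the 9804 protein-coding genes of the other chromosomes except W the median was 0.962, with 90% between 0.834 and 1.11. Relative to that median the Z-linked ratio was 1.43. By ratio, 47 Z-linked genes lay below 1, 119 from 1 to 1.25, 172 from 1.25 to 1.5, 125 from 1.5 to 1.75, 50 from 1.75 to 2 and 3 at 2 or above. The summed CPM of the 516 genes was 17037 to 17557 in male and 13069 to 13404 in female libraries, with no overlap. Set against 1000 CPM of other protein-coding genes, this sum was 62.1 to 66.0 in male and 47.2 to 49.3 in female libraries.

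**Figure D1:**
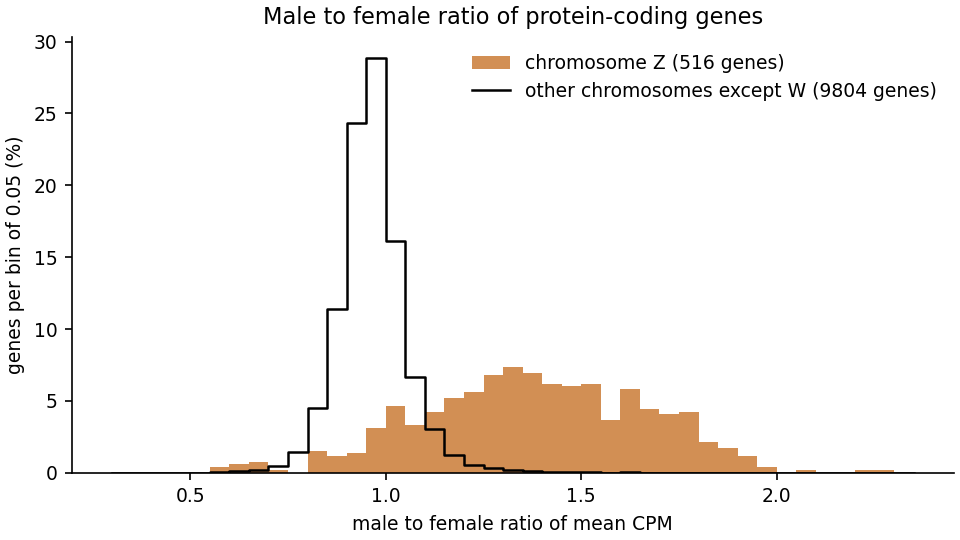
Distribution of the male to female ratio of mean CPM (x axis) as the percentage of genes per bin of 0.05 (y axis), for 516 Z-linked genes (filled bars) and 9804 protein-coding genes of other chromosomes except W (line). The Z-linked distribution is wide, with a median of 1.38, and the other genes form a narrow peak around 0.962.

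With lens against control in the model, 347 of the 516 genes were higher in male libraries and 10 were lower (limma on log2(CPM + 1), Benjamini-Hochberg adjusted p under 0.05), against 3.34% higher, 1.34% lower and 4.69% in either direction of all 11005 genes tested. For 159 Z-linked genes the difference did not pass. In 279 genes all 7 male libraries lay above all 7 female libraries, against 2.64% of all genes tested, and in 6 all female libraries lay above all male libraries, against 0.636%. The genes called higher had ratios of 1.11 to 2.28 with a median of 1.5. Of the 9804 genes on other chromosomes, 4 were called higher and 98 lower in males. Median-of-ratios scaling on genes off Z and W gave 16 and 25 of those, and 372 higher and 7 lower Z-linked genes.

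The largest ratios among genes averaging 5 CPM or more were near 2, the ratio of gene copies. MSH3, a DNA mismatch repair protein, had 17.2, 20.9 and 23.5 CPM in male libraries (lowest, median and highest of 7, here and below), against 7.27, 9.97 and 13.6 CPM in female libraries, a ratio of 2.06 (log2 fold change 0.98, SE 0.11, adjusted p = 6.82e-06). MSH3 was also lower in lens libraries numbered 1 to 4 than in those numbered 12 to 14 (log2 fold change -0.53). Of libraries 1 to 4, 3 of 4 were female. The call of MSH3 between the sexes held in all 27 alternatives, among them a fit with the 2 lens sets as terms. The part of the lens sets in the size of its ratio was not tested. RPS6, a protein of the small ribosomal subunit, had 117, 137 and 149 CPM in males, against 59.4, 69.998 and 74.9 CPM in females, a ratio of 1.94 (log2 fold change 0.96, SE 0.06, adjusted p = 7.26e-09). CHRNA6, a nicotinic acetylcholine receptor subunit, had 29.3, 29.8 and 31.04 CPM in males and 14.1, 15.8 and 16.998 CPM in females. For each of the 3 the lowest male library lay above the highest female one. SPIN1Z, the Z copy of the chromatin reader spindlin, had 66.5, 71.1 and 75.4 CPM in males and 34.9, 37.1 and 39.99 CPM in females, a ratio of 1.88 with the smallest standard error among the 10 largest (log2 fold change 0.91, SE 0.04, adjusted p = 6.61e-12). The other 6 had ratios of 1.84 to 1.87. They were IKBKAP, a subunit of the Elongator complex, DCTN3, a subunit of dynactin, NDUFS4, a subunit of respiratory complex I, HAUS6, a subunit of the spindle complex augmin, FAM172A and FAM174A, and all 6 rose in males (adjusted p at most 9.39e-07). The span of HAUS6 overlaps that of LOC112530787, and as the sources used here do not say whether counting used strand, their reads cannot be told apart.

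**Figure D2:**
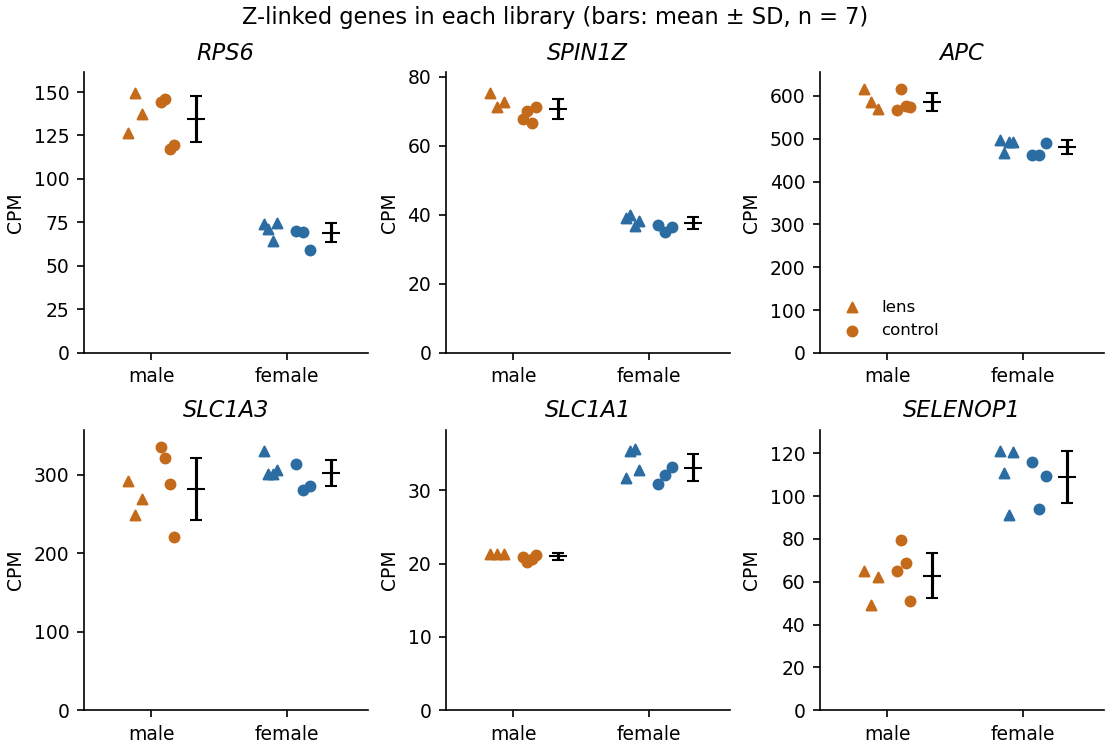
CPM of 6 Z-linked genes in each of the 14 libraries (y axis, from 0), male to the left of female, with triangles for lens and circles for control libraries and a bar for mean ± SD (n = 7 per sex). RPS6, SPIN1Z and APC lie higher in every male library, SLC1A3 overlaps between the sexes, and SLC1A1 and SELENOP1 lie lower in every male library.

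The 10 genes that were lower in males were ENHO, SELENOP1, BTF3, GLIS3, SLC1A1, CD274, GOLM1, PSD3, CDO1 and TMED7, with ratios of 0.577 to 0.864. The calls of CD274, PSD3 and TMED7 rested on the settings: they were lost in 17 of 26, 13 of 27 and 16 of 27 alternatives, among them scaling by the sum off Z and W (adjusted p = 0.0636, 0.0517 and 0.206 by limma). SELENOP1, selenoprotein P, a secreted carrier of selenium, had 49.2, 64.9 and 79.5 CPM in males, against 91.4, 111 and 121 CPM in females, a ratio of 0.577 (log2 fold change -0.80, SE 0.10, adjusted p = 1.58e-05). SLC1A1, a neuronal glutamate transporter, had 20.2, 21.1 and 21.4 CPM in males, against 30.8, 32.8 and 35.7 CPM in females, a ratio of 0.634 (log2 fold change -0.62, SE 0.04, adjusted p = 1.58e-08). In both genes the sexes did not overlap, and SLC1A1 spanned a narrower range in males than in females. GOLM1, a Golgi membrane protein, had 3.41, 3.95 and 4.67 CPM in males and 5.05, 6.23 and 6.80 CPM in females (log2 fold change -0.54, SE 0.08, adjusted p = 0.000155). ENHO, which codes for the secreted peptide adropin, had 7.27, 8.44 and 9.20 CPM in males and 9.24, 10.1 and 12.3 CPM in females, so the highest male library lay just below the lowest female one. PSD3, an exchange factor for the GTPase ARF6, had 46.96 ± 5.20 CPM in males and 57.1 ± 4.86 CPM in females (mean ± SD, n = 7 each), and the sexes overlapped. TMED7, a transport protein of the early secretory pathway, had 46.1 ± 2.93 CPM in males and 53.4 ± 3.76 CPM in females, with overlap; its span is shared in part with LOC107052392. The other 4 were low: BTF3 averaged 2.82 CPM in males and 4.12 in females, GLIS3 1.11 in males and 1.93 in females, CD274 1.64 in males and 2.41 in females, and CDO1, a dioxygenase of cysteine, 1.10 in males and 1.77 in females.

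Among genes averaging 5 CPM or more, 4 of the 10 lowest ratios did not pass the test. JAK2, a cytokine receptor kinase, had 32.9, 45.2 and 54.1 CPM in males and 45.4, 57.5 and 66.2 CPM in females, a ratio of 0.830 (log2 fold change -0.29, SE 0.09, adjusted p = 0.0883). CDC37L1, a relative of the HSP90 co-chaperone CDC37, had a ratio of 0.861 (adjusted p = 0.212 by limma) and overlaps AK3. The ratios of ABCA1, a cholesterol exporter, and of HMGCS1, an enzyme of cholesterol synthesis, were 0.820 and 0.857 over all libraries, but 0.991 and 1.04 in the control libraries by themselves and 0.767 and 0.771 in the lens libraries. Both genes were called higher in lens libraries 1 to 4, of which 3 of 4 were female. In the male of that set HMGCS1 lay among the male controls. The part of those libraries in either ratio was not tested.

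The genes with the most reads, which also grow with gene length, differed widely in ratio. APC, the scaffold of the beta-catenin destruction complex, had 568, 577 and 616 CPM in males and 461, 490.3 and 498 CPM in females, a ratio of 1.22 (log2 fold change 0.29, SE 0.04, adjusted p = 1.41e-05). ADGRV1, a very large adhesion receptor known for its part in Usher syndrome, had 304, 399 and 422 CPM in males and 185, 218 and 265 CPM in females, a ratio of 1.72. Its lowest male library was lens library 4, at 304 CPM. Like MSH3, ADGRV1 was lower in lens libraries 1 to 4 than in 12 to 14 (log2 fold change -0.39). Its call between the sexes held in all 27 alternatives, among them the fit with the 2 lens sets as terms. The part of the lens sets in the size of its ratio was not tested. SSBP2, a cofactor of transcription that binds single-stranded DNA, had a ratio of 1.30, and PTPRD, a receptor phosphatase of synapses, one of 1.47; both rose in males (adjusted p = 1.18e-05 and 1.09e-09 by limma). SLC1A3, the glutamate transporter of Mueller glia, had 221, 288 and 335 CPM in males and 281, 301 and 330.1 CPM in females, with wide overlap and a ratio of 0.932 (log2 fold change -0.11, SE 0.08, adjusted p = 0.554).

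The ratios of single genes were also computed in separate libraries. In lens libraries alone (3 male, 4 female) and control libraries alone (4 male, 3 female), they had medians of 1.39 and 1.37 over the 516 genes, and 447 genes were above 1 in both and 34 below 1 in both. Across genes, the log2 ratios of the lens and the control libraries had a Pearson r of 0.792 and a Spearman rho of 0.777 (n = 516 genes, which share libraries and are not independent). Over the 9804 genes of other chromosomes the same r was -0.02. The lens libraries alone gave 216 higher and 3 lower Z-linked genes by limma, against 2.12% higher and 0.518% lower of all genes tested. The control libraries alone gave 258 and 4, against 2.46% and 0.6%. The male lens libraries were mostly of numbers 12 to 14 and the female ones mostly of 1 to 4, so sex and lens number are partly confounded within the lens group.

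**Figure D3:**
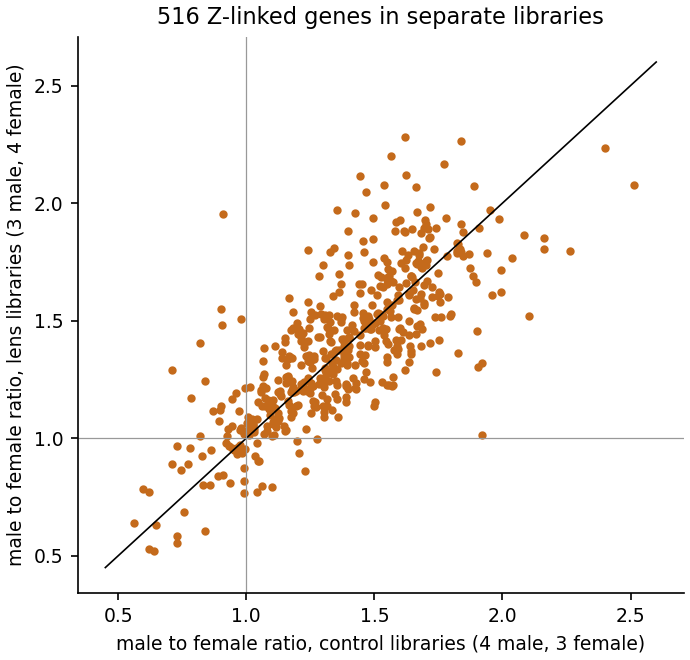
Male to female ratio of mean CPM of each of 516 Z-linked genes in lens libraries (y axis; 3 male, 4 female) and in control libraries (x axis; 4 male, 3 female), with the line of equality and grey lines at 1. The points follow the line of equality, with 447 genes above 1 in both and 34 below 1 in both.

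Along the chromosome the ratio was raised almost everywhere, with 1 clear gap. In bins of 5 Mb by gene start (GRCg6a coordinates, 17 bins), the median was 1.28 to 1.56 in 15 bins. In the bin from 25 to 30 Mb it was 1.05 over 28 genes, with 7 genes higher in males and 3 lower. Over all 516 Z-linked genes 67.2% were higher and 1.94% lower. The SD of this bin's median over the 7 male libraries was 0.0216. That SD holds the female means fixed, so it leaves out the spread between female libraries. The bin from 60 to 65 Mb had the largest median, 1.70 (25 genes), with 22 genes higher and none lower; it holds MSH3, and its genes with the most reads had smaller ratios, 1.30 for SSBP2, 1.06 for EDIL3, a secreted ligand of integrins, and 1.31 for RASGRF2, an activator of RAS. In lens libraries the medians of the lowest and the highest bin were 1.05 and 1.71, and in control libraries 0.998 and 1.62. A running median over 21 genes fell to 0.967 around AK3 (start 27455653) and reached 1.72 around LYSMD3 (start 59892527).

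The gap is centred on 4 noncoding RNA genes that were high in females and nearly absent in males. They are LOC107052260, LOC112530611, LOC100859072 and LOC112530612, at chrZ:27270853-27358088 in GRCg6a, which the table does not annotate further. LOC100859072 had 0.0286 to 0.183 CPM in male libraries, against 61.4 to 72.1 CPM in female libraries. The other 3 had 0 to 0.107 CPM in males, against 4.80 to 11.6 CPM in females, and none of the 4 overlapped between the sexes. The 4 were picked among noncoding Z genes for a male mean far below the female mean, so this lack of overlap is no separate result. The other 30 noncoding Z genes of at least 1 CPM had male to female ratios of 1.07 or more, with a median of 1.49. Among protein-coding genes, the 12 with the nearer edge of their span within 0.5 Mb of the cluster had a median ratio of 0.906. Of these 12, 8 were below 1, beside 71.5% of protein-coding genes on other chromosomes except W. The 8 at 0.5 to 1 Mb by the same measure had a median of 1.05 and the 6 at 1 to 2 Mb one of 1.48. Beyond 1 Mb, 496 genes had a median of 1.39, and 36 of them were below 1.

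On both sides of the cluster the nearest genes had ratios below 1, beside a median of 0.962 on other chromosomes except W. At lower coordinates, SLC1A1 (27065545 to 27125162) and GLIS3 (26850007 to 27012969) were called lower in males, with ratios of 0.634 and 0.577. GLIS3, a zinc finger transcription factor, had 0.899, 1.12 and 1.58 CPM in males and 1.65, 1.91 and 2.53 CPM in females, with no overlap (log2 fold change -0.47, SE 0.09, adjusted p = 0.00293). At higher coordinates, CDC37L1 (0.861), AK3 (0.849), RCL1 (0.951) and JAK2 (0.830) were below 1 without passing the test. CD274, the ligand of the immune checkpoint receptor PD-1, starts at 27669008 and had 1.26, 1.69 and 2.16 CPM in males and 2.005, 2.19 and 2.87 CPM in females, with overlap (log2 fold change -0.35, SE 0.09, adjusted p = 0.0353). Its span overlaps LOC112530672, which had a ratio of 1.37. Of the 20 genes within 1 Mb, 1 was called higher: KCNV2, a modifier subunit of photoreceptor potassium channels. It had 12.9, 18.5 and 22.5 CPM in males and 10.8, 14.7 and 16.6 CPM in females, a ratio of 1.34 (log2 fold change 0.36, SE 0.09, adjusted p = 0.0247). KCNV2 was also lower in lens libraries 1 to 4, of which 3 were female, than in controls (log2 fold change -0.50). The part of this in its ratio was not tested.

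**Figure D4:**
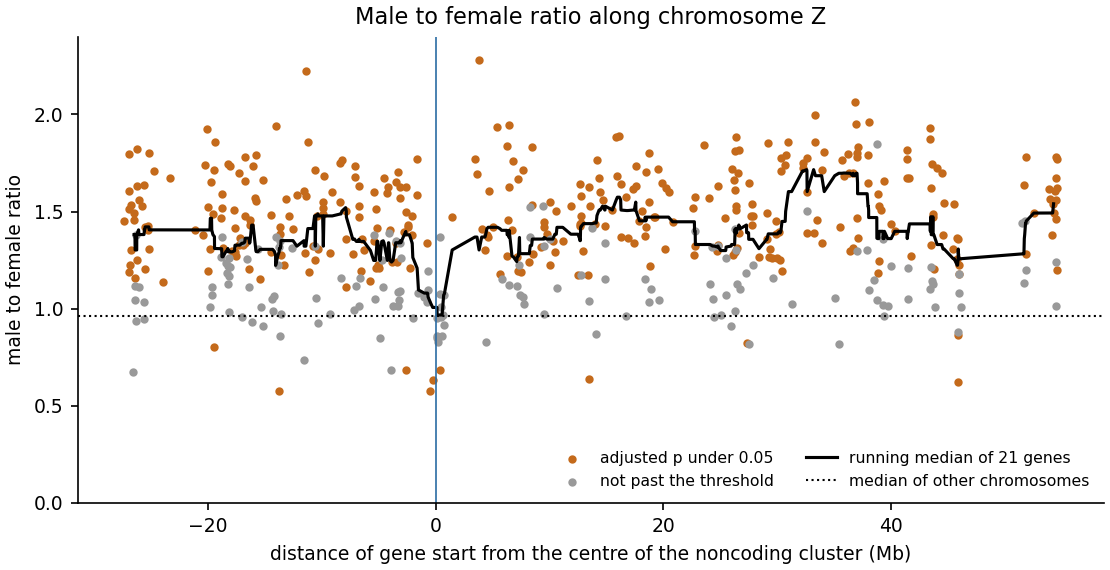
Male to female ratio (y axis) of 516 Z-linked genes against the distance of their start from the centre of the noncoding cluster (x axis, Mb), with a running median of 21 genes (black) and the median of other chromosomes (dotted, 0.962). Genes past adjusted p 0.05 are in colour; the running median comes nearest to the dotted line, at 0.967, by the cluster.

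Away from the cluster, neighbouring genes had no more than weakly related ratios. Between each gene and the next along the chromosome, Spearman's rho was 0.108 over all 515 pairs, and 0.0398 over the 495 pairs beyond 1 Mb of the cluster, given as a description. DCTN3 (ratio 1.86; 7914020 to 7921596) and ENHO (ratio 0.801; 7905542 to 7907394) lie close together and differed in direction, with RPP25L (ratio 1.71) between them. In 3 groups of 172 genes by mean CPM, the median ratio was 1.40 at low, 1.41 at middle and 1.31 at high levels. In 3 such groups by the length of the gene's span, it was 1.45 for the shortest (up to 17.8 kb), 1.38 for the middle and 1.32 for the longest (55.6 to 808 kb).

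Z-linked genes with a counterpart on W were raised in males with the rest. Of 20 such genes in the list used, 19 rose (95%, against 67.2% of all 516) and 1 fell (BTF3), and their median ratio was 1.53, against 1.38 for all 516. HNRNPK, an RNA-binding protein, had 106, 113 and 125 CPM in males and 75.5, 79.5 and 82.5 CPM in females (log2 fold change 0.52, SE 0.04, adjusted p = 1.14e-07). CHD1Z, a chromatin remodeller, had 86.7, 90.3 and 96.8 CPM in males and 54.3, 57.4 and 63.5 CPM in females (log2 fold change 0.64, SE 0.04, adjusted p = 1.34e-08). ZNF532 and SUB1, a coactivator of transcription, had ratios of 1.49 and 1.27. For 9 pairs both copies are named in the table, and the W copy reached at most 0.347 CPM in a male library. Reads of near-identical copies may be divided between them in ways the sources used here do not state.

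Adding the W copy changed the balance of these 9 pairs. The Z copies had male to female ratios of 1.29 to 1.88 (median 1.56), and the sums of Z and W copies had ratios of 0.255 to 1.24 (median 0.927), 6 of them below 1. Of the 9804 protein-coding genes of other chromosomes except W, 71.5% were below 1, with a median of 0.962. The pairs were made by gene name. Whether a W copy does what its Z copy does was not tested, so the sums are of RNA only. HINT1Z, a nucleotide hydrolase, had 33.5, 35.6 and 37.2 CPM in males and 18.5, 20.9 and 22.2 CPM in females. HINTW had 119 ± 10.1 CPM in females (SD, n = 7), 85.4% of the female sum. The summed mean was 35.5 CPM in males and 139.5 CPM in females, the ratio of 0.255. The sum of CHD1Z and its W copy averaged 90.9 CPM in males and 124 CPM in females. For HNRNPK the 2 sums were close, with 107 to 125 CPM in males and 109 to 120 CPM in females. For ATP5A1Z, the alpha subunit of ATP synthase, the sum averaged 54.5 CPM in males and 48.2 CPM in females, and for SPIN1Z 70.7 CPM in males and 57.1 CPM in females, so both remained higher in males.

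Of 18 genes of protein synthesis and turnover, 13 rose (72.2%, against 67.2% of all 516 Z-linked genes), 1 fell and 4 did not pass, with a median ratio of 1.47. Beside RPS6, TARS, the threonyl-tRNA synthetase, had 29.4, 33.4 and 37.1 CPM in males and 18.3, 19.8 and 20.2 CPM in females (log2 fold change 0.72, SE 0.05, adjusted p = 2.18e-08). UBQLN1, which carries ubiquitinated proteins to the proteasome, had a ratio of 1.42 (adjusted p = 0.00711 by limma). UBQLN1 was also lower in lens libraries 1 to 4 than in controls (log2 fold change -0.43), and the part of this in its ratio was not tested. Its call between the sexes was lost in 2 of 27 alternatives. PAIP1, a translation factor that binds poly(A)-binding protein, had 35.9, 40.7 and 41.3 CPM in males and 37.7, 40.4 and 45.2 CPM in females, an overlap, and a ratio of 0.972; the sign of its difference changed with the scaling. RPL37, a protein of the large ribosomal subunit, had a ratio of 1.05 and did not pass, unlike RPS6, RPS23 and RPL17.

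Of 26 genes of retinal neurons and glia, 16 rose (61.5%, against the same 67.2%), 1 fell (SLC1A1) and 9 did not pass, with a median ratio of 1.29. MAP1B, a microtubule protein of neurons, had 132, 153 and 165 CPM in males and 142, 159.7 and 167 CPM in females, with wide overlap and a ratio of 0.951. TRPM3, a cation channel, VLDLR, a reelin receptor, SV2C, a synaptic vesicle protein, and NR2F1, a nuclear receptor of retinal development, had ratios of 1.02, 1.03, 1.01 and 1.03 and did not pass. ISL1, a transcription factor of ganglion, amacrine, horizontal and bipolar cells, had 14.7, 16.1 and 22.7 CPM in males and 9.96, 10.7 and 12.1 CPM in females, with no overlap (log2 fold change 0.62, SE 0.08, adjusted p = 3.22e-05).

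Of 21 genes of growth factor and other signalling, 15 rose (71.4%) and 6 did not pass, with a median of 1.31. Over all 516 Z-linked genes 67.2% rose. PDE4D, a phosphodiesterase of cyclic AMP, had 209.8, 238 and 250.1 CPM in males and 139, 145 and 163 CPM in females (log2 fold change 0.66, SE 0.04, adjusted p = 1.01e-08), and PIK3R1, a regulatory subunit of PI 3-kinase, had 153, 155 and 163 CPM in males and 125, 137 and 151 CPM in females (log2 fold change 0.19, SE 0.04, adjusted p = 0.00711). The sexes did not overlap in either gene, although the ratio of PIK3R1 was 1.14. PRLR, the prolactin receptor, had a ratio of 1.34 (adjusted p = 0.000201 by limma) and shares part of its span with SPEF2. GHR, the growth hormone receptor, had 13.5 ± 1.07 CPM in males and 11.1 ± 1.66 CPM in females (SD, n = 7 each; adjusted p = 0.0961 by limma). In the list named for sex determination and hormones, 5 of 8 rose (62.5%, against the same 67.2%) and 3 did not pass. Their median was 1.46 over the 8 genes. The 8 were BHMT, GHR, PRLR, AMACR, CHD1Z, HSD17B4, HINT1Z and SPIN1Z, while DMRT2, FST, MLANA and HSD17B3 fell below the level threshold. CHD1Z, HINT1Z and SPIN1Z are also in the list of W counterparts.

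Of 20 genes of energy and lipid metabolism, 11 rose (55.0%, against 67.2% of all 516 Z-linked genes) and 9 did not pass (median 1.30). ATP5A1Z had 48.4, 53.1 and 64.4 CPM in males and 25.8, 29.8 and 34.6 CPM in females (log2 fold change 0.85, SE 0.06, adjusted p = 2.37e-08), and PAM, which amidates neuropeptides, had a ratio of 1.32 (adjusted p = 9.82e-05 by limma). Matrix and adhesion genes had the lowest median of the 7 lists, 1.19. Of these, 7 of 15 rose (46.7%, against the same 67.2%) and 8 did not pass. MPDZ, a scaffold of cell junctions, had 321, 327 and 368 CPM in males and 179, 197 and 238 CPM in females (log2 fold change 0.74, SE 0.05, adjusted p = 6.76e-09). EDIL3 had 129, 136 and 143 CPM in males and 120.3, 126 and 138 CPM in females, which overlapped. HAPLN1, a link protein of hyaluronan matrix, and VCAN, the proteoglycan versican, are close on the chromosome and had ratios of 0.817, which did not pass, and 1.42 (adjusted p = 0.00869 by limma).

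No Z-linked gene passed the test for lens against control with sex in the model, and no gene of the 11005 did (0%). At an unadjusted p under 0.05 there were 79 Z-linked genes (15.3%), 38 of them higher with the lens, against 14.7% of all genes tested. No Z-linked gene separated all lens from all control libraries (background 0.145% in each direction). Both groups hold both sexes, so the 279 genes with every male library above every female one could not do so. The same holds for the 6 genes with the reverse, and for these genes the count says nothing about the lens. Markers of the lens of the eye, of which 1 of 3 (CRYBA4) reached 1 CPM, summed to 10.97 to 15.5 CPM in lens and 14.1 to 19.4 CPM in control libraries. As CRYBB1 and MIP were near 0, this sum is in effect CRYBA4 alone, and its part in the differences was not tested. The smallest p belonged to NIM1KZ, a protein kinase, with 42.1, 45.7 and 45.3 CPM in male lens libraries, against 52.3, 59.1, 55.7 and 62.6 CPM in male controls. In female libraries NIM1KZ had 35.6, 30.6, 27.04 and 37.8 CPM with the lens, against 35.3, 47.3 and 41.95 CPM in controls (log2 fold change -0.35, SE 0.08, adjusted p = 0.0821 by limma). Males did not overlap between the groups and females did; the span of NIM1KZ overlaps HMGCS1. Without lens library 13, 3 genes passed: NIM1KZ and PCASP1, and PCGF3, a polycomb ring finger protein that is named after its values were seen. In that fit 0.445% of all genes tested were higher and 0.227% lower. PCASP1 had 29.1, 30.7 and 30.9 CPM in male lens libraries, against 27.6, 25.6, 25.3 and 26.6 CPM in male controls (log2 fold change 0.20, SE 0.05, adjusted p = 0.135 by limma with all libraries). CPLX4, a complexin of photoreceptor and bipolar cell ribbon synapses, averaged 80.3 ± 5.23 CPM with the lens and 92.3 ± 7.17 CPM in controls (SD, n = 7 each; adjusted p = 0.135 by limma). PCSK5, a proprotein convertase, had a log2 difference of -0.22, and KLF9, a transcription factor, one of 0.22, at adjusted p of 0.135 and 0.137 by limma.

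The lens difference itself was also compared between the sexes, with an interaction term. By limma no Z-linked gene passed, and none of all genes tested did (0%). At an unadjusted p under 0.05 there were 37 Z-linked genes (7.17%), against 917 of all genes tested (8.33%). The smallest p was that of ZNF532, at an interaction of 0.39 log2 units (adjusted p = 0.461). In males it had 66.01, 75.3 and 69.02 CPM with the lens and 69.4, 75.6, 68.2 and 80.3 CPM in controls, which overlapped. In females it had 40.1, 41.7, 41.5 and 42.5 CPM with the lens and 56.6, 56.6 and 58.3 CPM in controls, which did not. ZFR, an RNA-binding zinc finger protein, was next, with 43.4 to 46.8 CPM in female lens libraries, against 53.6 to 56.8 CPM in female controls (interaction 0.31, adjusted p = 0.461 by limma). Both genes are in the list of W counterparts.

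The lens libraries fall into numbers 1 to 4 (1 male, 3 female) and 12 to 14 (2 male, 1 female), which share the same 7 controls. For lens libraries 1 to 4 against control, 34 Z-linked genes were higher and 49 lower by limma with sex in the model, 16.1% of the 516, against 11.3% higher, 6.47% lower and 17.8% in either direction of all genes tested. The share in either direction was near this background. By direction, 6.59% of the 516 were higher and 9.50% lower, so more fell than rose, unlike all genes tested. With median-of-ratios scaling 22 were higher and 68 lower, against 8.41% higher and 9.13% lower of all genes tested. Without sex in the model 6 were higher and 28 lower, against 11.1% and 4.87%. As 3 of these 4 lens libraries and 3 of 7 controls were female, that fit cannot tell sex from lens set for Z-linked genes. Without control library 19 the count was 52, of which 21 were higher, and without lens library 2 it was 58, of which 22 were higher; no other library moved it by over 1.5 times. Of the 83 genes, 5 differed by 1.5-fold or more. No control carries a number from 1 to 4, so the lens and anything else shared by those numbers cannot be told apart.

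ABCA1 rose most in lens libraries 1 to 4. It had 14.6 CPM in the male and 19.3, 14.2 and 15.7 CPM in the female libraries of that set, against 10.8, 9.35, 7.65 and 9.55 CPM in male and 10.1, 9.27 and 8.91 CPM in female controls (log2 fold change 0.70, SE 0.10, adjusted p = 0.000474). In lens libraries 12 to 14 it had 8.57 and 10.2 CPM in males and 8.79 CPM in the female, within the control range. HMGCS1 rose by 0.42 log2 units (adjusted p = 0.0146 by limma), with 95.4, 95.8 and 78.99 CPM in females of lens libraries 1 to 4, against 61.8, 57.7 and 55.8 CPM in female controls. The 1 male of that set, at 61.8 CPM, lay among the male controls, which had 51.3, 62.02, 55.96 and 73.9 CPM. Together with OXCT1, an enzyme of ketone use, and ATP5A1Z, these made 4 higher (20%) and 0 lower of the 20 energy and lipid genes, against 6.59% higher of all 516 Z-linked genes and 11.3% higher of all genes tested. VCP, an ATPase that extracts ubiquitinated proteins, rose by 0.46 (adjusted p = 0.00284 by limma).

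Of the 26 genes of the retinal list, 6 fell (23.1%), 1 rose (LINGO2) and 19 did not pass in lens libraries 1 to 4. Over all 516 Z-linked genes 9.50% were lower and 6.59% higher, and over all genes tested 6.47% were lower and 11.3% higher. KCNV2 had 12.9 CPM in the male and 10.8, 12.1 and 10.9 CPM in the females, against 18.1, 22.5, 19.1 and 19.9 CPM in male and 15.96, 16.6 and 14.7 CPM in female controls (log2 fold change -0.50, SE 0.07, adjusted p = 0.000446). All 4 libraries lay below every control, and lens libraries 12 to 14 had 18.5 and 18.2 CPM in males and 15.4 CPM in the female. The others that fell were ADGRV1, TLE1, a corepressor, RGS7BP, an anchor of RGS7 proteins, RORB, a nuclear receptor of photoreceptor and horizontal cell development, and HOMER1, a postsynaptic scaffold, with log2 fold changes of -0.45 to -0.14. MAN2A1, a mannosidase of N-glycan processing, had 19.2 CPM in the male and 9.32, 9.42 and 8.85 CPM in the females, against 26.5, 21.97, 21.9 and 22.1 CPM in male and 13.7, 18.1 and 17.7 CPM in female controls (log2 fold change -0.61, SE 0.11, adjusted p = 0.00187). UBQLN1 and DIRAS2, a RAS-like GTPase, fell, with log2 fold changes of -0.43 and -0.32 (adjusted p = 0.00187 and 0.000571 by limma).

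**Figure D5:**
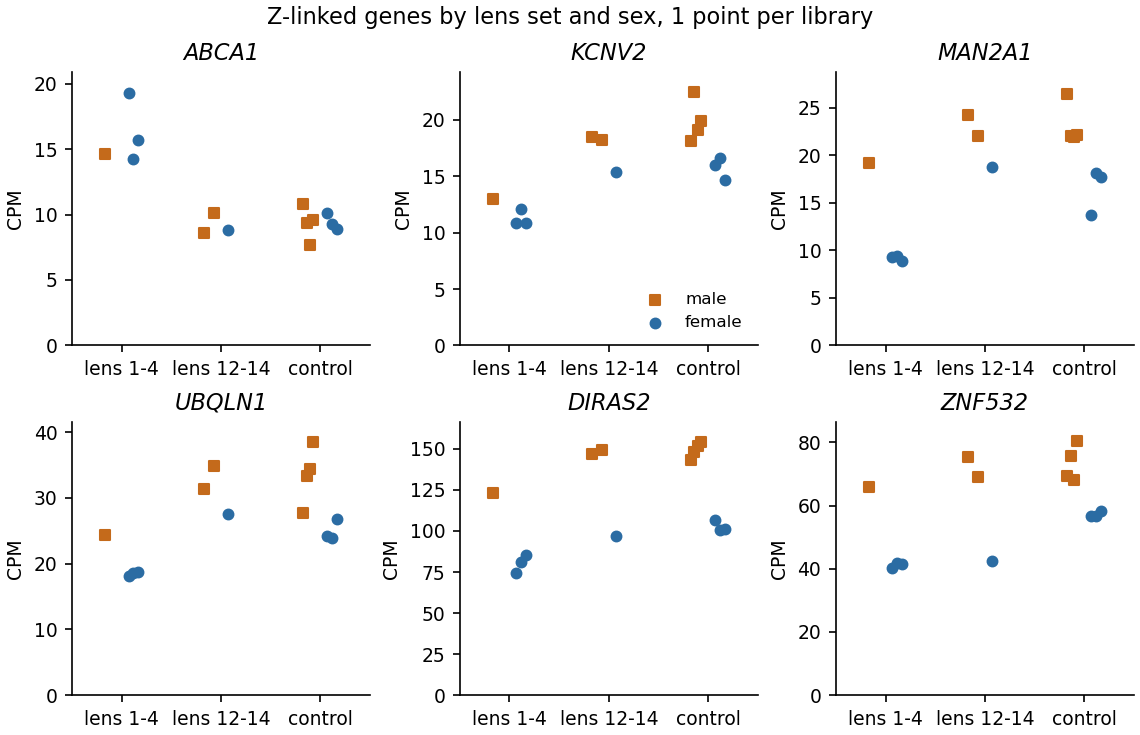
CPM (y axis, from 0) of 6 Z-linked genes in lens libraries 1 to 4, lens libraries 12 to 14 and controls, 1 point per library, with squares for males and circles for females. In ABCA1 the 4 libraries of numbers 1 to 4 lie above all others, and in KCNV2 they lie below all others.

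For lens libraries 1 to 4 in the other lists, of the 20 W counterparts 3 rose and 2 fell, of 21 signalling genes 1 rose (PRLR) and 1 fell (JAK2), of 18 genes of protein synthesis and turnover 2 rose and 1 fell, of 15 matrix genes 1 rose and 2 fell, and of 8 sex and hormone genes 1 rose. In that comparison 6.59% of all 516 Z-linked genes were higher and 9.50% lower, and 11.3% and 6.47% of all genes tested. For lens libraries 12 to 14 against control no Z-linked gene passed by limma, against 0.0182% of all genes (0.00909% higher and 0.00909% lower). At an unadjusted p under 0.05 there were 35 Z-linked genes (6.78%), against 6.48% of all genes tested. The smallest p was that of RBP4, the plasma carrier of retinol, with 144 and 168 CPM in males and 176 CPM in the female, against 274, 189, 201 and 238 CPM in male and 189, 249 and 207 CPM in female controls (adjusted p = 0.487).

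Tested directly, lens libraries 1 to 4 and 12 to 14 differed at 50 Z-linked genes by limma, 18 higher and 32 lower in libraries 1 to 4, which is 9.69% of the 516, against 6.18% higher, 3.61% lower and 9.79% in either direction of all genes tested. The share in either direction was again near the background. By direction, 3.49% of the 516 were higher and 6.20% lower, so again more fell than rose, unlike all genes tested. With median-of-ratios scaling 14 were higher and 44 lower, against 4.91% higher and 5.39% lower of all genes tested. The count depended on single libraries, and was 9 without lens library 13, 24 without 14 and 30 without 12; 13 is the 1 female of its set. Without lens library 3 it was 35, of which 18 were lower. CMYA5, a muscle protein also found in other tissues, had 34.5 CPM in the male and 19.98, 17.6 and 18.8 CPM in the females of libraries 1 to 4, against 20.6 and 21.3 CPM in the males and 13.2 CPM in the female of libraries 12 to 14 (log2 fold change 0.56, SE 0.08, adjusted p = 0.00213). NCBP1, a subunit of the nuclear cap-binding complex, had 19.6 CPM in the male and 18.1, 19.4 and 18.8 CPM in the females of libraries 1 to 4, against 26.3 and 27.004 CPM in the males and 24.9 CPM in the female of 12 to 14 (log2 fold change -0.41, SE 0.08, adjusted p = 0.00637). ABCA1 was higher by 0.72, and ADGRV1 and MSH3 were lower in libraries 1 to 4, with log2 fold changes of -0.39 and -0.53 (adjusted p = 0.00542 and 0.00661 by limma). Within each sex, both were lower in every library of numbers 1 to 4 than in any of 12 to 14.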

How the data were processed

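RNA of 14 chick retinas was measured by total RNA sequencing with a stranded kit. The deposited table holds CPM that the authors computed, with 0.0001 added to every cell; this unit was read from the values, and CPM is not divided by gene length. STAR, Partek and the genome build GRCg6a are named in the submitters' processing notes; their roles, the counting rule and the use of strand are not given in the sources used here. Of the low values, up to 20 reads, 93.8% to 95.2% per library were whole reads within 0.05, short of the share a count model would need, so values were tested on a log scale. The constant was subtracted and log2(CPM + 1) was tested for 11005 genes of at least 1 CPM on average, with limma 3.58.1 (R 4.3.3, mean-variance trend, two-sided, Benjamini-Hochberg over all genes tested). Standard errors of fold changes are limma's, and fold changes on this scale understate the change of low genes. Models held sex and lens, their interaction, or sex and 3 levels (lens 1 to 4, lens 12 to 14, control). Male to female ratios are ratios of mean CPM with no pseudocount. The table has 0 columns of other series, and columns were matched to samples by title. The model was also run on simulated counts of independent libraries with no difference between the lens sets. That run does not cover a difference between those sets. Symbols come from the table, and the RefSeq gene table of GRCg7b was used for the names of sequences only.

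The set of genes, the gene lists, the Z and W pairs and the lens sets were chosen with earlier results of these data known. Genes are named by rule: the 10 largest and 10 smallest ratios at 5 CPM or more, the 5 with the most reads, the most abundant of each list, those of smallest p in the lens comparisons, and examples of the lowest and highest bins. Other genes were named after their values were seen: all genes called lower in males, neighbours of the noncoding cluster and of DCTN3, and further list members. Alternatives covered the pseudocount, the level filter, 3 other scalings, covariates, bins, robust variance, lens or control libraries alone and each library left out.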

Additional observations from a re-analysis of the deposited data

Results flagged for a closer look

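In 10 of 140 groups of 7 libraries tested, over the genes named by rule, 1 library lay far from the other 6 of its sex; chance flags about 5% of groups. Male lens library 4 was low in ADGRV1 (303.5 CPM, others 383 to 422), DIRAS2 (123 CPM, others 143 to 154) and PAIP1 (35.9 CPM, others 39.3 to 41.3), and high in SETBP1 (74.1 CPM, others 59.6 to 64.6). It is the 1 male of lens libraries 1 to 4. Male control library 22 was high in ANKDD1B (4.43 CPM, others 2.35 to 3.22) and SSBP2 (318 CPM, others 301 to 307). Male control library 17 was high in GLIS3 (1.58 CPM, others 0.899 to 1.16) and HNRNPK (125 CPM, others 106 to 114). Female lens library 13 was low in CHRNA6 (14.1 CPM, others 15.7 to 16.998), and female control library 21 was high in PDE4D (163 CPM, others 139 to 149).

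The difference between lens libraries 1 to 4 and 12 to 14, tested with sex in the model by limma, passed for CMYA5 (log2 fold change 0.56), ABCA1 (0.72), ADGRV1 (-0.39), NCBP1 (-0.41) and MSH3 (-0.53), the 5 of smallest p among the 50 Z-linked genes called.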

How the results depend on the processing

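The number of Z-linked genes called between the sexes stayed within 1.5 times of 357 except in lens libraries alone (219, 216 higher and 3 lower) and, for lower genes, in control libraries alone (4); the lens and control subsets hold 7 libraries each. Leaving out 1 library gave 333 to 355 called, 326 to 346 higher and 7 to 10 lower. The median ratio was 1.37 to 1.38 with 1 library left out, 1.41 scaled by the sum off Z and W, 1.44 with median-of-ratios scaling and 1.42 after quantile normalization. The lowest bin median was 0.967 in 2.5 Mb bins and as a running median, 1.24 in 10 Mb bins and 0.998 in control libraries alone. Lens against control gave 0 to 3 calls with 1 library left out, and the interaction and lens libraries 12 to 14 gave 0. Lens libraries 1 to 4 against control gave 52 to 95 (21 to 39 higher, 31 to 56 lower), 34 without sex in the model (6 and 28), and 22 higher with median-of-ratios scaling. Lens libraries 1 to 4 against 12 to 14 gave 9 to 53 (3 to 21 higher, 6 to 35 lower) and 22 without sex in the model (4 and 18). Among named genes, HMGCS1 turned to a male over female log2 difference of 0.044 in control libraries, and PAIP1 to 0.0026 (sum scaling), 0.022 (median-of-ratios), 0.00034 (quantile), 0.046 (control libraries), and to between -0.055 and 0.0048 with 1 library left out (0.0048 without lens library 4); the cause was not tested. Further alternatives were added after seeing the data: without the 20 genes within 1 Mb of the noncoding cluster 353 were called, and without genes that overlap another 266 of 380. No paired analysis was possible because the title numbers of lens and control libraries do not overlap. The total of 27.7 to 49.3 M reads per library limits genes near 1 CPM, where a library holds few reads.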
